A study of Mus musculus with 16 samples.

Results

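The Cdkn genes described here are the 7 mouse genes for cyclin-dependent kinase inhibitors of the CIP/KIP and INK4 families. They were chosen by name from the 45706 genes of the counts table, and all 7 were found there. The CIP/KIP family has 3 members, Cdkn1a (the protein p21), Cdkn1b (p27) and Cdkn1c (p57). The INK4 family has 4 members, Cdkn2a (p16INK4a and, from another start site, p19ARF), Cdkn2b (p15), Cdkn2c (p18) and Cdkn2d (p19INK4d). RNA was sequenced from ear skin of 8 C57BL/6J mice, an inbred laboratory strain. The mice were males with no allele named in the labels, and each was biopsied with a 3 mm die cutter at 24 months in 1 ear and at 30 months in the other, which gave 8 pairs and 16 libraries. By the labels the mice were 23.8 to 24.4 months old at the earlier biopsy and 29 to 30.1 months at the later one, so both groups are old animals although the labels name the first "young". The mice are named by their numbers, which are 13, 14, 21, 29, 43, 50, 64 and 75, and the comparison asks how the genes changed within each animal over these months. Because each animal gave 1 library per age, a difference within a mouse includes the difference between its ears and between its biopsies.

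Cyclin-dependent kinases drive a cell from rest into DNA synthesis by phosphorylating the retinoblastoma protein, which releases the E2F factors that switch on the genes of S phase. INK4 proteins bind the kinases Cdk4 and Cdk6 and keep D-type cyclins away from them, whereas CIP/KIP proteins bind whole cyclin-kinase complexes, above all those with cyclin E and cyclin A. In skin these inhibitors act where keratinocytes leave the basal layer and differentiate. Cdkn1a is a classical target of p53, Cdkn2b is induced by TGF-beta, Cdkn1c is an imprinted gene expressed from the maternal allele, and Cdkn2a is widely used as a marker of senescent cells.

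Depth was similar at both ages, with 27494852 to 35527197 counts on genes per library at 24 months and 22967222 to 36162431 at 30 months. Levels are given in CPM (counts scaled to a common library size) after scaling of the library sizes by the trimmed mean of M values (TMM). Because the biopsies are bulk tissue, fewer cells of a type and less RNA per cell cannot be told apart in any value below. Marker genes of keratinocytes, fibroblasts, cartilage and other ear tissues were counted in the libraries, and 5 marker genes of the 18 lists (Flg, Matn3, Ms4a1, Ly6g and Retnlg) had no count in at least 1 library. Some libraries stood apart in these markers. The 30-month library of mouse 50 was the highest of the 16 in 5 lists, those of fibroblasts, macrophages, T cells, B and plasma cells, and mast cells. The same library was the lowest of the 16 for basal keratinocytes. The 30-month library of mouse 29 was the highest in 2 lists (endothelial and fat cells) and the lowest in 4 lists (fibroblasts, T cells, B and plasma cells, and pigment cells). Other mice also differed between their biopsies. The summed skeletal muscle level had the largest spread of within-mouse log2 change among the lists (SD 1.99). It went from 613 to 5825 CPM in mouse 13 and from 7138 to 824 CPM in mouse 43. In mouse 43 the fat cell level went from 264 to 64.5 CPM.

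The sequences around the start sites are shown first, because a single Cdkn2a value covers transcripts from separate promoters. In the GENCODE M21 annotation (GRCm38), Cdkn2a lies on the minus strand of chr4:89274471-89294653, and its coding transcripts start 12461 bases apart. Of its 1172 exon bases, 575 (49.1%) belong to both the p16INK4a and the p19ARF transcript, so the counts do not separate the products. Cdkn2b lies 11646 bases upstream of the p19ARF start of Cdkn2a, at chr4:89306299-89311039 on the same strand. The promoter windows below run from 250 bases before to 50 bases after a start site, are taken from RefSeq (GRCm38.p6), and read 5′ to 3′ on the strand of the gene. Capitals in the first 3 mark GGGCGG, the core of the GC box bound by Sp1, searched on both strands.
Cdkn2a p16INK4a start, chr4:89282143-89282442, minus strand: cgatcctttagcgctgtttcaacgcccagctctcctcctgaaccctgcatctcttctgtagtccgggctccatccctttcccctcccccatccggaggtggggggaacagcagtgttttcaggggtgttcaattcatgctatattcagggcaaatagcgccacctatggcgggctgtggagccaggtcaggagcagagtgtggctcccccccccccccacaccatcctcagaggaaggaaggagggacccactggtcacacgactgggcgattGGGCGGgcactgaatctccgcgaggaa
Cdkn2a p19ARF start, chr4:89294570-89294869, minus strand: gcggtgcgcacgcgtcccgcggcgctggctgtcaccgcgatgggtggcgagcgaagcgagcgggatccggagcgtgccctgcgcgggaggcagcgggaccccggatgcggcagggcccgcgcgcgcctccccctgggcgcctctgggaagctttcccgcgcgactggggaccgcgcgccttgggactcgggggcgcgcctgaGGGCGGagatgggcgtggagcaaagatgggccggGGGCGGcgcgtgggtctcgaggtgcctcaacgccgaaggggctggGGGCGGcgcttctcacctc
Cdkn2b start, chr4:89310983-89311282, minus strand: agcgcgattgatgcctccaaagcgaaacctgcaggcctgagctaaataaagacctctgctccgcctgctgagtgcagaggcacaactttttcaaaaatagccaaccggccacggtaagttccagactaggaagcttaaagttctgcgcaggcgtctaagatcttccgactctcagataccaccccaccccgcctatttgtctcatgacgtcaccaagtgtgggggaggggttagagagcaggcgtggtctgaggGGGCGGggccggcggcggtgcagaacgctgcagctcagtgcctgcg
Cdkn1a upstream start, chr17:29090729-29091028, plus strand: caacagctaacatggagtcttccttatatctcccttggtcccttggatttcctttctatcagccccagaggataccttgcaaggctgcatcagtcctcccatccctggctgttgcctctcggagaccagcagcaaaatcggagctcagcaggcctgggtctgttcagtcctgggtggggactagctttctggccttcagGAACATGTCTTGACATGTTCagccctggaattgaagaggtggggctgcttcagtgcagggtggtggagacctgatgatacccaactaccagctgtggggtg

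The p19ARF window held 45 CpG dinucleotides, 77% G or C, and 3 GGGCGG matches. Of 3 E2F motifs searched on both strands (TTTCGCGC, TTTGGCGC and TTTCCCGC), it held TTTCCCGC once, and the other 8 windows found for the family held none of the 3. Among the 32851 RefSeq promoter windows of mouse genes, 1.07% held TTTCCCGC and 1.84% held any of the 3. The other motifs searched were TATAAA, which no window of the family held (13.6% of all), and CACGTG, which 1 Cdkn2c window held (7.15% of all). The p16INK4a window held 12 CpG and 1 GGGCGG, and the Cdkn2b window held 18 CpG and 1 GGGCGG. The median over all windows was 7 CpG, and 35.7% of them held GGGCGG. The Cdkn1a window is shown for another reason. Its capitals mark the only match of the family to the p53 response element, 20 letters that were searched with at most 1 letter off the consensus, and it starts 51 bases before the start site. Such a match was found in 29 windows, or 0.0883% of all. Cdkn1c had no entry and is named only. A match describes the letters in the window, and binding was not measured.

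Between 24 and 30 months, 0 of the 7 genes changed at an adjusted p under 0.05 in the paired edgeR fit, and neither did any of the 21526 genes tested (0%). Without adjustment, 3 of 7 had a p under 0.05, with Cdkn2a and Cdkn2d higher and Cdkn2b lower at 30 months. With no filter on low counts Cdkn2d had an edgeR unadjusted p of 0.0596, which left 2 of 7. The same threshold was passed by 12% of all genes, 4.86% higher and 7.18% lower, and by 2400 genes (11.1%) in DESeq2. In edgeR these shares depended on single mice. The genes higher numbered 1047 with all mice and 1927 without mouse 43, and the genes lower 1546 with all mice and 998 without mouse 21. At an adjusted p under 0.05, DESeq2 called 240 of the 17352 genes to which it gave one (1.38%), and none of them was a Cdkn gene. The median log2 fold change was -0.017 over the members and 0.0069 over all genes tested. The values of both ages overlapped for each of the 7 genes.

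**Figure D1:**
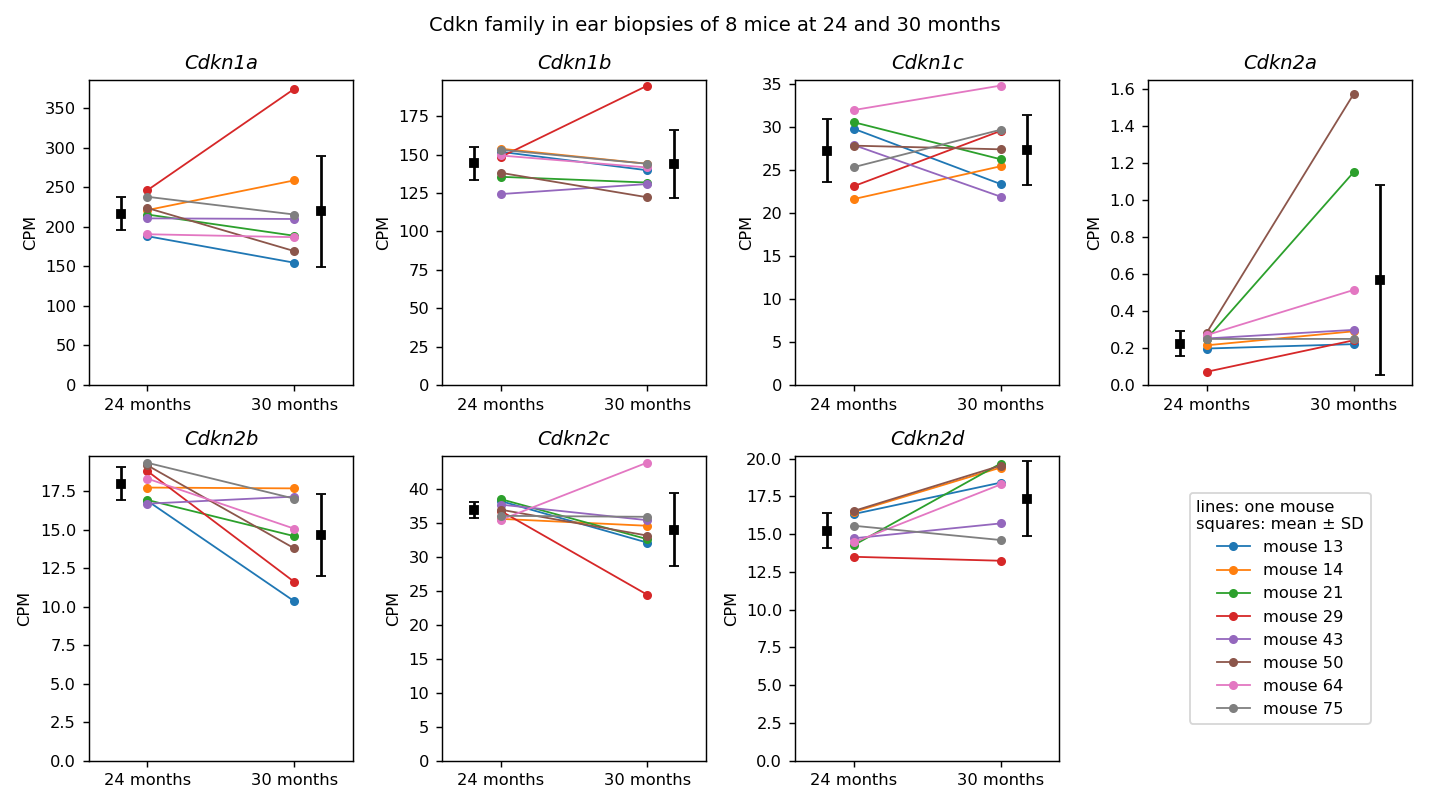
CPM of the 7 Cdkn genes (y axis, linear from 0) at 24 and 30 months (x axis). Each coloured line joins both libraries of a mouse, and black squares with bars give the mean ± SD of 8 mice. Cdkn2a is highest at 30 months in mice 50 and 21, with 1.57 and 1.15 CPM, and mouse 29 stands above the others in Cdkn1a at 30 months with 375 CPM.

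Cdkn1a encodes p21, which stops the cycle after p53 is activated and also on entry into differentiation. The gene lies on the plus strand of chr17:29090976-29100727. Its level ranged from 188 to 246 CPM at 24 months (median 218) and from 155 to 375 CPM at 30 months (median 199). The mean was 217 ± 20.5 CPM (SD, n = 8) at 24 months and 219.9 ± 70.2 CPM (SD, n = 8) at 30 months, so the means were alike, and the spread at 30 months included the high value of mouse 29. Cdkn1a was lower at 30 months in 6 mice and higher in 2, mice 14 and 29, or lower in 5 and higher in 3 when scaled by total counts. The log2 fold change was -0.029 (SE 0.10, edgeR adjusted p = 0.925), and the exact two-sided sign-flip permutation test over 8 mice gave p = 0.812. Mouse 29 went from 246 to 375 CPM, and the next highest library at 30 months had 259 CPM. Without mouse 29 the log2 fold change was -0.11 (SE 0.078, edgeR adjusted p = 0.646).

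Cdkn1b encodes p27, which holds cells in rest and is controlled largely by degradation of the protein. It lies on the plus strand of chr6:134920401-134925513. Its level ranged from 124 to 154 CPM at 24 months (median 149) and from 122 to 195 CPM at 30 months (median 141). The mean was 144 ± 10.6 CPM (SD, n = 8) and 144 ± 22.1 CPM (SD, n = 8), with a log2 fold change of -0.017 (SE 0.068, edgeR adjusted p = 0.935). The gene was lower in 6 mice and higher in 2, mice 29 and 43. Mouse 29 was again the highest at 30 months with 195 CPM, followed by 144 CPM. Leaving it out gave a mean within-mouse log2 change of -0.075 ± 0.078 (SD), at p = 0.0469 in the exact two-sided sign-flip permutation test over 7 mice, whereas over 8 mice the p was 0.844. The edgeR fit without this mouse gave -0.071 (SE 0.050, unadjusted p = 0.192, adjusted p = 0.661).

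The 30-month biopsy of mouse 29 also differed from its 24-month biopsy in cell type markers. The summed level of 5 fat cell genes was 138 CPM at 24 months and 699.6 CPM at 30 months, above the 24-month range of 110.2 to 264 CPM. The 6 endothelial genes went from 101 to 277 CPM and the 6 fibroblast genes from 4092 to 2549 CPM. The part of this make-up in the Cdkn1a and Cdkn1b values of the mouse was not tested.

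Cdkn1c encodes p57, which is needed in development and in tissue stem cells. It lies on the minus strand of chr7:143458339-143461050. Its level ranged from 21.6 to 32.0 CPM at 24 months (median 27.9) and from 21.9 to 34.9 CPM at 30 months (median 26.9). The means were 27.3 ± 3.65 CPM (SD, n = 8) and 27.3 ± 4.08 CPM (SD, n = 8). Cdkn1c was higher in 4 mice and lower in 4. The log2 fold change was -0.00021 (SE 0.096, edgeR adjusted p = 0.999). Single mice moved in both directions by more than this mean, between -0.35 and 0.35 on the log2 scale.

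Cdkn2a was the least counted member and the one with the greatest fold change. Its level ranged from 0.0709 to 0.283 CPM at 24 months (median 0.249) and from 0.220 to 1.57 CPM at 30 months (median 0.294). The 30-month group reached far higher, and 5 of its 8 libraries lay above all 24-month libraries. The mean was 0.223 ± 0.0674 CPM (SD, n = 8) at 24 months and 0.567 ± 0.512 CPM (SD, n = 8) at 30 months. The log2 fold change was 1.11 (SE 0.34, edgeR unadjusted p = 0.00789, adjusted p = 0.288), a 2.15-fold higher fitted level. DESeq2 gave 1.06 with an unadjusted p of 0.0229 and no adjusted p, because its filter on low counts removed the gene. The scaled level was higher at 30 months in 8 of 8 mice, as for 1.08% of all genes tested (6.49% were higher in 7 or 8 mice), and the exact two-sided sign-flip permutation test gave p = 0.00781, the smallest that 8 mice allow. With total counts in place of TMM the level was higher in 7 of 8 mice and the p of the same exact permutation test was 0.0156.

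These values rest on few reads. Over the 8 mice, 54 reads were counted on Cdkn2a at 24 months and 128 at 30 months. Mouse 50 had 10 reads at 24 months and 50 at 30 months, a ratio of scaled counts of 5.57 with an exact 95% interval of 2.79 to 12.3 that covers counting error only. Mouse 21 had 7 and 27 reads, a ratio of 4.61 (1.96 to 12.6). In the other 6 mice the interval of the ratio included 1. Their reads at 24 and 30 months were 6 and 8 in mouse 13, 6 and 9 in mouse 14, 2 and 7 in mouse 29, 8 and 8 in mouse 43, 8 and 12 in mouse 64, and 7 and 7 in mouse 75. Mice 21 and 50 thus held 31.5% of the 24-month reads and 60.2% of the 30-month reads.

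Without both of these mice, which were singled out after their values had been seen, the mean was 0.208 ± 0.0725 CPM (SD, n = 6) at 24 months and 0.302 ± 0.108 CPM (SD, n = 6) at 30 months. The log2 fold change was then 0.52 (SE 0.29, edgeR unadjusted p = 0.109, adjusted p = 0.625). All of these 6 mice had a change above 0, by 0.00092 on the log2 scale in mouse 75 with 7 reads at both ages, so the exact sign-flip permutation test can give only its smallest p. With 1 mouse left out, the log2 fold change was lowest without mouse 50 at 0.82 (edgeR adjusted p = 0.373).

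**Figure D2:**
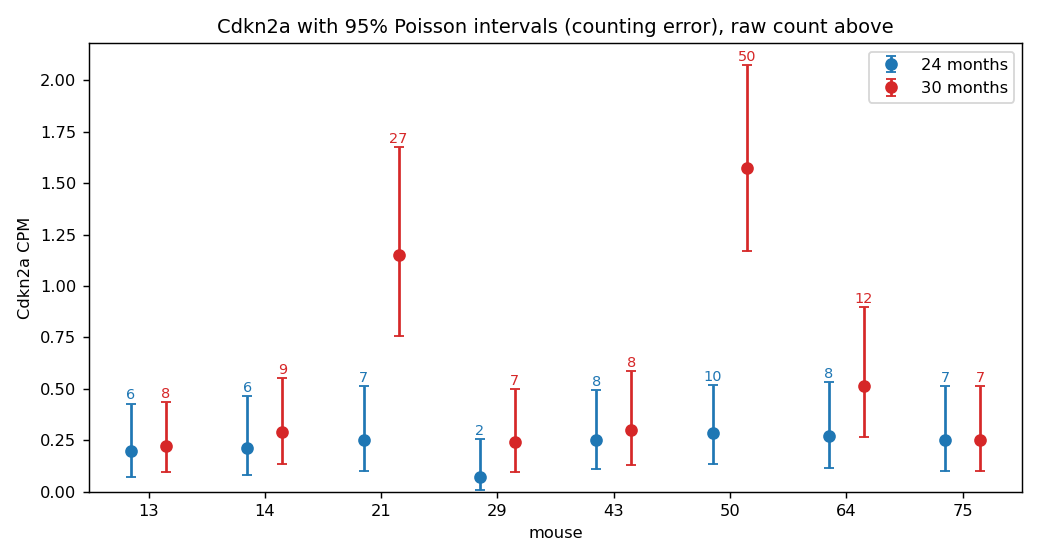
Cdkn2a CPM (y axis) in each mouse (x axis) at 24 months (blue) and 30 months (red), with exact 95% Poisson intervals for counting error and the raw read count above each. The intervals of both ages are separate in mice 21 and 50 and overlap in the other 6 mice.

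The genes whose log2 CPM over 16 libraries was most correlated with Cdkn2a were Mx1 (r = 0.92), Ddx60 (r = 0.90) and Oas1a (r = 0.89), all known as interferon-induced antiviral genes. Mx1 ranged from 2.37 to 4.01 CPM at 24 months, and at 30 months it reached 26.7 CPM in mouse 21 and 45.7 CPM in mouse 50. In the other 6 mice it was at most 5.77 CPM at 30 months. Oas1a had 12.6 CPM in both mouse 21 and mouse 50 at 30 months, against at most 1.36 CPM at 24 months and 1.58 CPM in the other mice at 30 months. The same 2 libraries were thus the highest for Cdkn2a and for these genes. Without them and the 30-month library of mouse 29, r fell to 0.55 for Mx1, 0.55 for Ddx60 and 0.39 for Oas1a over 13 libraries. These correlations describe libraries that share depth and tissue make-up and carry no test, and with 2 to 50 reads of Cdkn2a per library each r with it is imprecise.

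Cell type markers moved in those libraries as well. The summed endothelial level was 221 CPM in mouse 21 and 264 CPM in mouse 50 at 30 months, against 91.3 to 137 CPM over the 24-month libraries. The smooth muscle and pericyte level was 383 and 379 CPM, against 209.5 to 302 CPM. These were the 2 lists of 18 in which both libraries lay above all 24-month libraries. They were not alone in this. At 30 months mouse 29 had an endothelial level of 277 CPM and a smooth muscle and pericyte level of 319 CPM with 0.241 CPM of Cdkn2a, and mouse 13 had 182 and 355 CPM with 0.220 CPM of Cdkn2a. The macrophage level reached 1128 CPM in mouse 50 and was 331 CPM in mouse 21, with 294 to 508 CPM at 24 months. The T cell level was 129.5 CPM in mouse 50 and 47.0 CPM in mouse 21, with 38.0 to 52.3 CPM at 24 months. The basal keratinocyte level was 8553 CPM in mouse 50 and 16815 CPM in mouse 21, with 11388 to 14775 CPM at 24 months. The fibroblast level was 13993 CPM in mouse 50 and 5324 CPM in mouse 21, with 3763 to 7454 CPM at 24 months. Over the 16 libraries, the log2 CPM of Cdkn2a had its highest r with the T cell (0.63) and fibroblast (0.61) levels. The endothelial (0.60) and smooth muscle and pericyte (0.57) levels followed, and each r is imprecise at these read counts. The part of these cells in the Cdkn2a values was not tested.

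Cdkn2b encodes p15, the INK4 inhibitor induced by TGF-beta, and had the lowest fold change of the family. Its level ranged from 16.7 to 19.4 CPM at 24 months (median 18.03) and from 10.4 to 17.7 CPM at 30 months (median 14.8). The lowest 30-month libraries were those of mice 13 (10.4 CPM) and 29 (11.6 CPM), and 5 of the 8 libraries at 30 months lay below all 24-month libraries. The mean was 17.99 ± 1.08 CPM (SD, n = 8) at 24 months and 14.7 ± 2.66 CPM (SD, n = 8) at 30 months. The log2 fold change was -0.31 (SE 0.10, edgeR unadjusted p = 0.0101, adjusted p = 0.296). Cdkn2b was lower in 7 of 8 mice, the exception being mouse 43 with 16.7 and 17.2 CPM, and 8.33% of all genes tested were lower in 7 or 8 mice. Mouse 14 was lower by little, with 17.7 CPM at both ages. The exact two-sided sign-flip permutation test gave p = 0.0234 over 8 mice and between 0.0156 and 0.0469 with any 1 mouse left out. Without both mice 21 and 50, left out after their values had been seen, the p of this test was 0.0938. The edgeR fit without both gave -0.30 (SE 0.12, unadjusted p = 0.0383, adjusted p = 0.512).

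Cdkn2b was measured from 337 to 679 reads per library, and in mouse 13 it went from 16.9 CPM (95% Poisson interval 15.5 to 18.4, counting error only) to 10.4 CPM (9.34 to 11.5). Over the 16 libraries its log2 CPM had r = 0.77 with the summed level of 6 differentiated keratinocyte genes and r = -0.73 with that of 6 endothelial genes. These were the highest and the lowest r of the 18 marker lists. The endothelial level ranged from 91.3 to 137 CPM at 24 months and from 96.2 to 277 CPM at 30 months, with 4 of its 6 genes higher at an unadjusted p under 0.05 (4.86% of all genes tested). The differentiated keratinocyte level ranged from 13000.2 to 17940.3 CPM and from 12215 to 18146 CPM. Within mice it was higher at 30 months in only 2, with a mean log2 change of -0.15 ± 0.196 (SD). The cartilage level (r = 0.58 with Cdkn2b) was higher in only 1 mouse, with a mean log2 change of -0.26 ± 0.22 (SD). Of its 6 genes, 3 were lower at an unadjusted p under 0.05 (7.18% of all genes tested). The hair follicle level (r = 0.47) was also higher in only 1 mouse, with 2 of 6 genes lower. The part of the tissue make-up in the Cdkn2b difference was not tested. The genes most correlated with Cdkn2b were Tmprss4 (r = 0.92), a membrane serine protease, Arf6 (r = 0.91), a small GTPase of membrane traffic, and Znrf2 (r = 0.90), a ubiquitin ligase. Without the 30-month libraries of mice 21, 29 and 50, these r values were 0.90, 0.90 and 0.94 over 13 libraries.

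Cdkn2c encodes p18 and lies on the minus strand of chr4:109660876-109667189, on the chromosome that also carries Cdkn2a and Cdkn2b. Its 24-month level was the most even of the family, from 35.5 to 38.5 CPM (median 36.9), a coefficient of variation of 3.16%. At 30 months it ranged from 24.4 CPM in mouse 29 to 43.9 CPM in mouse 64 (median 33.9), a coefficient of variation of 15.8%. The mean was 36.9 ± 1.17 CPM (SD, n = 8) and 34.0 ± 5.37 CPM (SD, n = 8). Cdkn2c was lower in 7 of 8 mice, with mouse 64 the exception, and 8.33% of all genes tested were lower in 7 or 8 mice. Mice 75 and 14 were lower by little, with log2 changes of -0.0058 and -0.042. The log2 fold change of Cdkn2c was -0.13 (SE 0.087, edgeR adjusted p = 0.553). The exact two-sided sign-flip permutation test gave p = 0.195. Leaving out mouse 64, the only one with a higher value, places the exact permutation p at 0.0156, the smallest that 7 mice allow, by construction. The edgeR fit without it gave -0.20 (SE 0.079, adjusted p = 0.395).

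Cdkn2d encodes p19INK4d and lies on the minus strand of chr9:21288410-21291407. Its level ranged from 13.5 to 16.5 CPM at 24 months (median 15.1) and from 13.2 to 19.7 CPM at 30 months (median 18.3). The mean was 15.2 ± 1.15 CPM (SD, n = 8) and 17.4 ± 2.49 CPM (SD, n = 8), with a log2 fold change of 0.18 (SE 0.077, edgeR unadjusted p = 0.0420, adjusted p = 0.396). At 30 months 6 of 8 mice had more Cdkn2d and mice 29 and 75 had less. The exact two-sided sign-flip permutation test gave p = 0.0391 over 8 mice, and over 0.05 when any of mice 13, 14, 21, 43, 50 or 64 was left out, up to 0.0781. The edgeR unadjusted p was between 0.0561 and 0.0964 without any 1 of mice 13, 14, 21, 50 or 64, and 0.207 without both mice 21 and 50. The largest difference was in mouse 21, from 14.3 to 19.7 CPM.

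**Figure D3:**
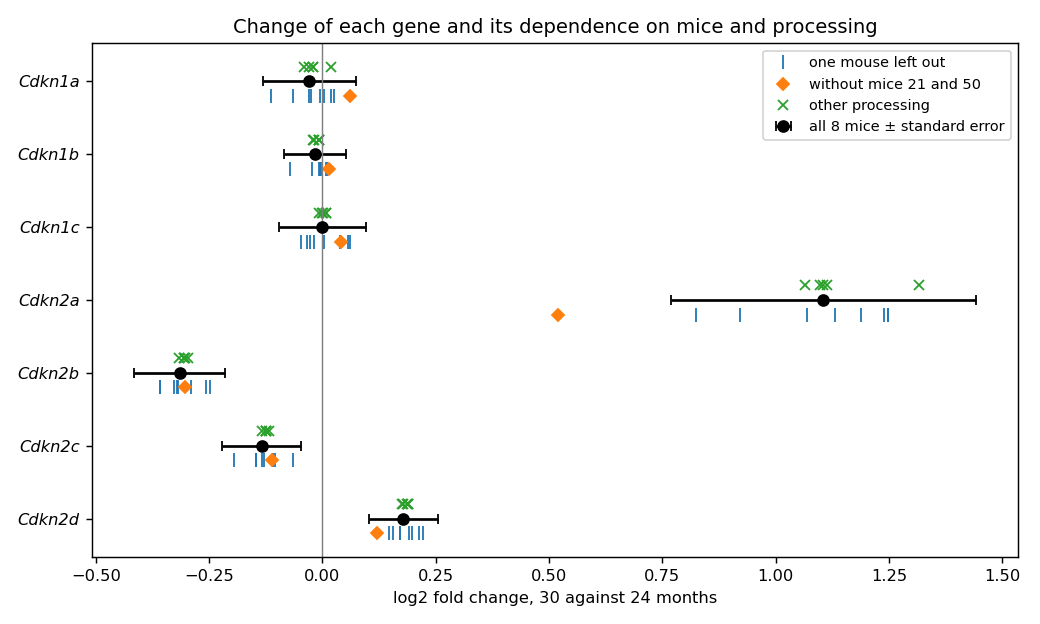
Log2 fold change of each Cdkn gene between 24 and 30 months (x axis), with all 8 mice ± standard error in black, each mouse left out in turn as blue ticks, both mice 21 and 50 left out as orange diamonds, and other processing as green crosses. Cdkn2a is lowest at 0.52 without mice 21 and 50, Cdkn2b stays between -0.36 and -0.25, and the CIP/KIP genes lie on both sides of 0.

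Within the mice, the order of the changes was uneven. On the log2(CPM + 0.1) scale Cdkn2a had the highest change of the 7 genes in 6 of 8 mice. With a pseudocount of 1 it did so in 2 of 8, mice 21 and 50, and in the other mice its counts were 2 to 12 reads. Cdkn2b had the lowest change in 5 of 8 mice with either pseudocount. The change of Cdkn2a was above that of its neighbour Cdkn2b in 8 of 8 mice, also with either pseudocount. The level of Cdkn2b per length was 56.1 to 224 times that of Cdkn2a at 24 months (up to 72.4 without mouse 29, which had 2 reads of Cdkn2a) and 7.39 to 57.7 times at 30 months, lowest in mice 50 (7.39) and 21 (10.7). The ranges of both ages overlapped only through mouse 75, which had the 57.7.

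Levels were compared between genes in RPKM, which is CPM divided by the merged exon length in kilobases. At 24 months the order was Cdkn1a with 61.0 ± 5.77 RPKM (SD, n = 8), Cdkn1b with 31.7 ± 2.33, Cdkn2c with 13.8 ± 0.435, Cdkn1c with 13.4 ± 1.79, Cdkn2b with 12.9 ± 0.776, Cdkn2d with 9.67 ± 0.732 and Cdkn2a with 0.190 ± 0.0575 RPKM. The neighbours Cdkn2c and Cdkn1c, and Cdkn1c and Cdkn2b, overlapped in range, and the other neighbours did not. At 30 months the order was Cdkn1a with 61.9 ± 19.8 RPKM (SD, n = 8), Cdkn1b with 31.6 ± 4.86, Cdkn1c with 13.4 ± 2.00, Cdkn2c with 12.7 ± 2.00, Cdkn2d with 11.02 ± 1.58, Cdkn2b with 10.5 ± 1.92 and Cdkn2a with 0.484 ± 0.437 RPKM. There the 4 genes from Cdkn1c to Cdkn2b overlapped each neighbour, and Cdkn2b was above Cdkn2d in 8 of 8 mice at 24 months but below it in 5 of 8 at 30 months. Cdkn1a lay above 95.2% of 21402 genes tested that had an exon length and Cdkn2a above 12.1%.

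**Figure D4:**
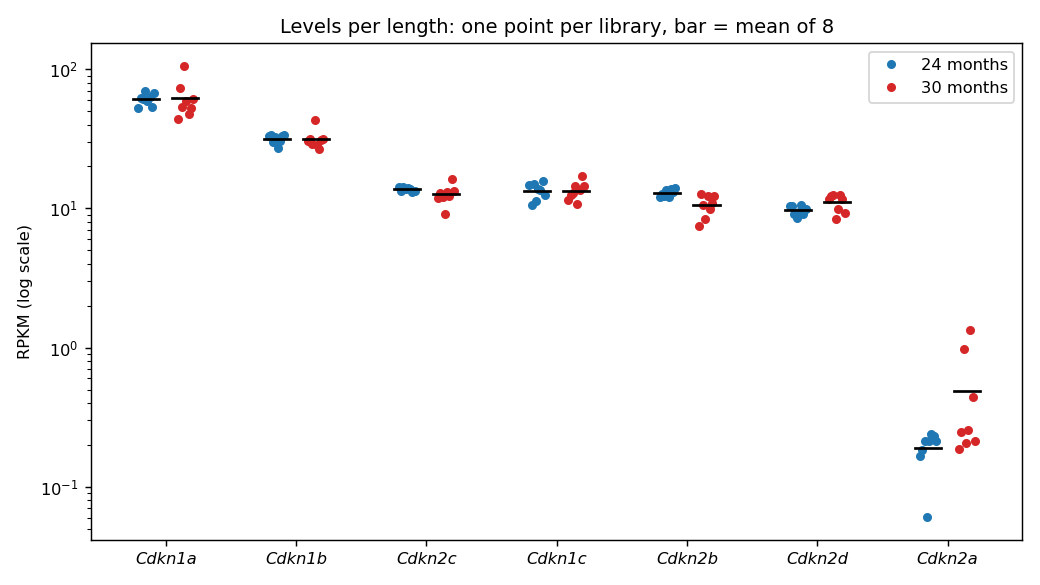
RPKM of each Cdkn gene (y axis, log scale) at 24 months (blue) and 30 months (red), with 1 point per library and a bar at the mean of 8. Cdkn1a and Cdkn1b lead at both ages, 4 genes lie close together between 7.45 and 17.1 RPKM at 30 months, and Cdkn2a is lowest.

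The CIP/KIP genes made up 74.4% ± 0.882 of the summed RPKM of the family at 24 months (SD, n = 8) and 74.9% ± 4.83 at 30 months (SD, n = 8). The highest share at 30 months was 86.2% in mouse 29 and the lowest 70.9% in mouse 50. The summed level was 143 ± 5.40 RPKM (SD, n = 8) at 24 months and 142 ± 22.4 RPKM (SD, n = 8) at 30 months. The coefficient of variation at 24 and 30 months was 9.45% and 31.9% for Cdkn1a, 7.34% and 15.4% for Cdkn1b, 5.99% and 18.2% for Cdkn2b, and 7.57% and 14.4% for Cdkn2d. For Cdkn1c it was 13.4% and 14.9%, and for Cdkn2a, which had few reads, 30.2% and 90.3%. Mouse 29 carried part of this spread. Without it the coefficients were 8.46% and 17.4% for Cdkn1a and 7.86% and 6.06% for Cdkn1b, and at 30 months the SD was 1.65 for the CIP/KIP share and 12.5 RPKM for the summed level. The differences in spread were not tested.

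Across the 21 pairs of members, the correlation of log2 CPM over 16 libraries ran from -0.55 (Cdkn1a and Cdkn2d) to 0.72 (Cdkn1a and Cdkn1b). Cdkn2a with Cdkn2d had r = 0.69, imprecise for the same low counts of Cdkn2a, and Cdkn2b with Cdkn2c r = 0.59. Without the 30-month libraries of mice 21, 29 and 50, r was -0.24 for Cdkn1a with Cdkn2d, 0.13 for Cdkn1a with Cdkn1b, 0.53 for Cdkn2a with Cdkn2d, 0.26 for Cdkn2b with Cdkn2c, and 0.80 for Cdkn1a with Cdkn2b, a pair that had 0.12 over all 16. It was 0.66 for Cdkn1c with Cdkn2c and 0.50 for Cdkn1c with Cdkn2a, which both had 0.21 over all 16.

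The genes most like Cdkn1a were Ppp2r2a (r = 0.93), a regulatory subunit of protein phosphatase 2A, Foxo3 (r = 0.93), a forkhead factor, and Cdsn (r = 0.92), the corneodesmosin of the cornified layer. Cdsn ranged from 457 to 645 CPM at 24 months and reached 849 CPM in mouse 29 at 30 months. Cdkn1b was most like Zfp623 (r = 0.93), Gm37780 (r = 0.92) and Ing4 (r = 0.91), the last of them a chromatin reader. Cdkn1c was most like Snx7 (r = 0.81), Gm9496 (r = 0.80) and Gm7558 (r = 0.80). Cdkn2c was most like Gm9696 (r = 0.93), S100b (r = 0.93) and Mybl1 (r = 0.92), and S100b had its lowest value, 5.14 CPM, in mouse 29 at 30 months, where Cdkn2c was lowest too. Cdkn2d was most like Gm38157 (r = 0.86), Dmac1 (r = 0.84) and Tmem160 (r = 0.82). Gm37780, Gm9496 and Gm38157 were counted at under 2 CPM, where r is imprecise.

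The genes that work with the family were read from 10 lists chosen with earlier results of these data known. Of 161 genes tested in them, 5 were higher and 13 lower at an unadjusted p under 0.05 (11.2%, against 12% of all genes), and 0 passed an adjusted p of 0.05 in edgeR. Their share was thus close to that of all genes. The genes of the cell cycle engine come first. Among 13 G1 cyclins and kinases, 0 were higher and 2 lower, with a median log2 fold change of -0.15 against 0.0069 over all genes. Cdk7, the kinase that activates other Cdks, was 43.6 ± 3.48 CPM (SD, n = 8) and 39.4 ± 2.92 CPM (SD, n = 8), lower in all but 1 mouse, with a log2 fold change of -0.15 (SE 0.056, edgeR adjusted p = 0.347). Cdc25a, a phosphatase that activates Cdk2, had -0.20 (adjusted p = 0.402) and Ccne2, cyclin E2, had -0.26 (adjusted p = 0.437). The INK4 targets, picked after their values were seen, had log2 fold changes of -0.096 for Cdk4 (adjusted p = 0.540) and -0.15 for Cdk6 (adjusted p = 0.456).

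Of 16 retinoblastoma and E2F genes, 0 were higher and 1 was lower. Rb1 itself was 72.3 ± 4.84 CPM (SD, n = 8) at 24 months and 65.7 ± 8.84 CPM (SD, n = 8) at 30 months, a log2 fold change of -0.15 (SE 0.061, edgeR adjusted p = 0.385). Tfdp2, a partner of E2F, had 0.17 (adjusted p = 0.5259) and Lin52, a subunit of the DREAM complex, 0.13 (adjusted p = 0.529). Among 28 genes of S phase and mitosis, 0 passed in either direction, although 26 had a log2 fold change below 0 and the median was -0.16. The lowest p values were those of Top2a, topoisomerase II, with -0.43 (SE 0.34, edgeR adjusted p = 0.615), the checkpoint kinase Bub1 with -0.37 (adjusted p = 0.631) and Rrm1, of ribonucleotide reductase, with -0.19 (adjusted p = 0.636). These genes are expressed together in dividing cells, so that 26 of 28 is not 28 separate observations.

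The regulators of Cdkn1a and Cdkn1b were looked at next. Of 20 genes of p53 and its targets, 1 was higher and 3 were lower. Pmaip1, the pro-apoptotic protein Noxa, was 10.2 ± 1.36 CPM (SD, n = 8) at 24 months and 14.1 ± 2.93 CPM (SD, n = 8) at 30 months, a higher level in 8 of 8 mice. Its log2 fold change was 0.46 (SE 0.10, edgeR unadjusted p = 0.00102, adjusted p = 0.222). Mdm4, an inhibitor of p53, was 270.1 ± 12.5 CPM (SD, n = 8) and 235 ± 16.8 CPM (SD, n = 8), lower in 8 of 8 mice (log2 fold change -0.20, edgeR adjusted p = 0.272), as were 1.69% of all genes tested. Zmat3, a p53 target that binds RNA, had -0.28 (adjusted p = 0.279) and Trp53, picked after its value was seen, -0.27 (adjusted p = 0.292). Cdkn1a, a p53 target like Pmaip1, had a log2 fold change near 0 (-0.029, edgeR adjusted p = 0.925). It was lower in 6 of 8 mice, or in 5 when scaled by total counts. Of 10 genes of CDKN1B turnover and FOXO factors, 0 passed in either direction. Rbx1 had 0.073 (adjusted p = 0.614), Skp1a -0.080 (adjusted p = 0.678), both of them subunits of SCF ubiquitin ligases, and Ubac1 0.12 (adjusted p = 0.706).

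For the INK4 genes the lists held TGF-beta signalling, chromatin regulators and neighbouring genes. Of 12 TGF-beta genes, 1 was higher and 0 were lower. Tgfbr2, the type II receptor, was 159 ± 13.9 CPM (SD, n = 8) and 193 ± 35.4 CPM (SD, n = 8), higher in 6 of 8 mice (log2 fold change 0.27, SE 0.097, edgeR adjusted p = 0.340). Tgfbr3, a co-receptor, had 0.16 (adjusted p = 0.578) and the ligand Tgfb3 -0.099 (adjusted p = 0.596). Of 24 Polycomb and other regulators of the Ink4 locus, 3 were higher and 2 lower. Id3 was 43.7 ± 6.98 CPM (SD, n = 8) and 60.2 ± 9.25 CPM (SD, n = 8), with a log2 fold change of 0.46 (SE 0.11, edgeR adjusted p = 0.222). Phc1, a Polycomb repressive complex 1 subunit, was 16.5 ± 1.75 CPM (SD, n = 8) and 20.9 ± 3.36 CPM (SD, n = 8), with 0.33 (SE 0.080, edgeR adjusted p = 0.222). Both were higher in 8 of 8 mice. Id1, which like Id3 binds and blocks helix-loop-helix factors and is known to oppose activation of p16INK4a, had 0.45 (SE 0.16, adjusted p = 0.333). The 2 lower genes, named after their values were seen, were Ezh2, the methyltransferase of Polycomb complex 2, with -0.25 (adjusted p = 0.340) and Jarid2, a partner of that complex, with -0.15 (adjusted p = 0.379). Of 6 genes around Cdkn2a and Cdkn2b, 2 could be tested. Klhl9 had -0.17 (adjusted p = 0.346) and Mtap -0.023 (adjusted p = 0.936).

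Cdkn1c sits in an imprinted cluster, and of 15 imprinted genes 0 were higher and 2 lower. Kcnq1ot1, the long non-coding RNA of this cluster, was 19.04 ± 1.44 CPM (SD, n = 8) and 15.3 ± 2.14 CPM (SD, n = 8), lower in 8 of 8 mice. Its log2 fold change was -0.33 (SE 0.077, edgeR unadjusted p = 0.00151, adjusted p = 0.222). Slc22a18, a transporter gene of the same cluster, was 8.87 ± 1.07 CPM (SD, n = 8) and 7.34 ± 1.396 CPM (SD, n = 8), also lower in 8 of 8 mice (log2 fold change -0.28, edgeR adjusted p = 0.342). Igf2 had 0.16 (adjusted p = 0.444). Cdkn1c itself was lower in 4 of 8. Kcnq1ot1 is antisense to Kcnq1, and because the library kit does not keep strand, reads of the overlapping parts cannot be told apart.

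Genes used beside Cdkn2a as signs of senescence were counted last. Of 21 tested, 0 were higher and 2 lower, with a median log2 fold change of 0.18. Mmp9, a matrix metalloproteinase, was 7.75 ± 2.29 CPM (SD, n = 8) at 24 months and 3.81 ± 1.502 CPM (SD, n = 8) at 30 months, lower in 8 of 8 mice. Its log2 fold change was -1.07 (SE 0.26, edgeR unadjusted p = 0.00171, adjusted p = 0.222). Igfbp5, an insulin-like growth factor binding protein, was 534 ± 88.7 CPM (SD, n = 8) and 386 ± 102 CPM (SD, n = 8), also lower in 8 of 8 mice (log2 fold change -0.51, edgeR adjusted p = 0.279). Plau, the urokinase gene, had -0.22 (adjusted p = 0.422). Of the 21 genes, 14 had a log2 fold change above 0 and 7 below. The list mixes secreted and nuclear genes, so neither this split nor the median is a measure of senescence.

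**Figure D5:**
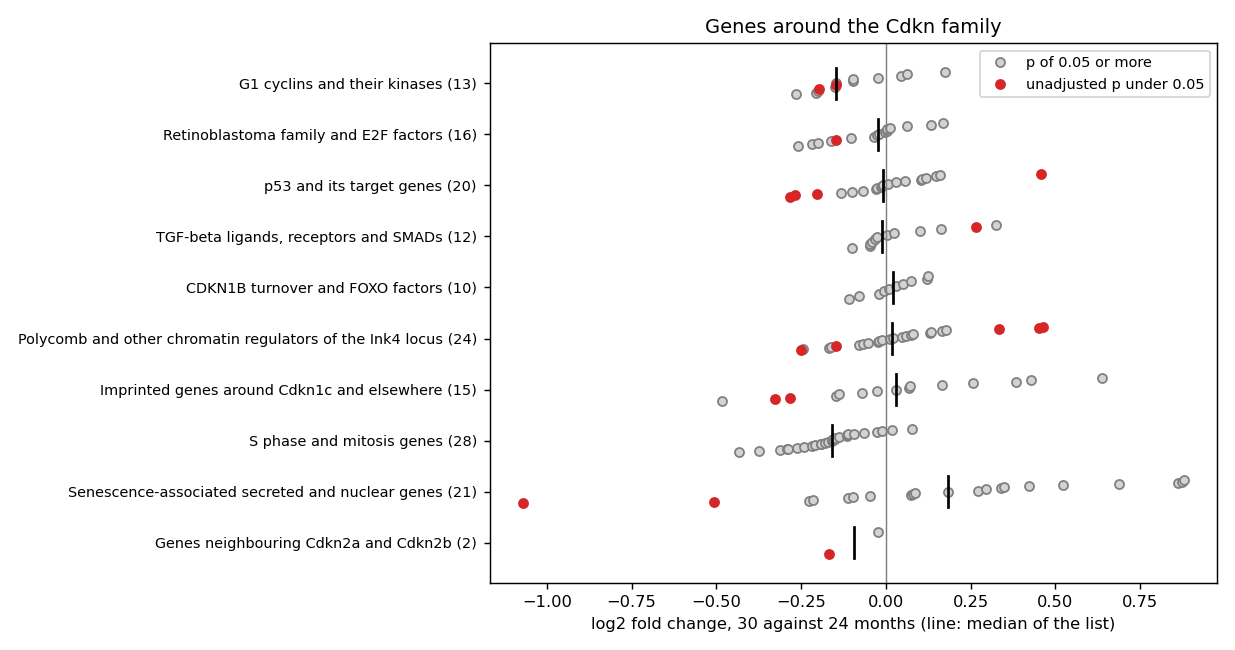
Log2 fold change between 24 and 30 months (x axis) of the genes in 10 lists around the Cdkn family, with the number tested in brackets and a black line at the median of each list. Red points passed an unadjusted p of 0.05 and grey points did not. The S phase and mitosis list lies mostly below 0 with a median of -0.16 and no red point.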

How the data were processed

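RNA from 16 ear biopsies of 8 mice was sequenced by the authors as 50 nt single-end reads of TruSeq libraries. Per the submitters' processing notes in the labels they used CASAVA 1.8.4, TopHat2 2.1.0 (mm10, which is GRCm38) and HTSeq 0.6.1p1, and deposited raw counts per gene, not normalized. The study's methods name another TopHat version and, beside HTSeq, featureCounts, so the versions and counter behind these files are uncertain. The strand setting is not given in the sources used here. The summary lines for reads on no gene and for ambiguous reads were left out. They held 18.7% to 21.1% of the sum of these lines and the counts on genes. Counts of 45706 genes were matched to GENCODE M21 (45143 found) for symbols and exon lengths.

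Counts were tested with edgeR 4.0.16 in R 4.3.3 (TMM, filterByExpr, quasi-likelihood test, mouse as a block because both libraries come from the same animal), with Benjamini-Hochberg adjustment over all genes and a threshold of 0.05. The median correlation of deviations from the age means was -0.026 within mice and -0.017 between mice. By this measure both libraries of a mouse were no more alike than libraries of different mice. Single mice ran from -0.43 (mouse 43) to 0.31 (mouse 75). Single genes were also tested with an exact two-sided sign-flip permutation test on log2(CPM + 0.1), unadjusted. Scripts were tested on simulated data. Intervals and read ratios cover counting error only. Alternatives were DESeq2 1.42.0 and its size factors, no filter, no block, age in months, a pseudocount of 1, total-count scaling, levels without length, and each mouse left out. The fit without mice 21 and 50 and the search for the p53 element were added after seeing the data. Python 3.11.15 served for the rest.

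The genes, lists and tests were chosen with earlier results of these data known. Named are the members, the 3 genes with the smallest p of each of 10 lists, and the 3 genes most correlated with each member. Others are said to be picked after their values were seen. Sequences come from RefSeq windows, found for 6 of 7 members. In the annotation, Cdkn1a and Cdkn1c overlap antisense genes that the counts table does not list.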

Additional observations from a re-analysis of the deposited data

Results flagged for a closer look

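Of the values of the Cdkn genes, 4 of mouse 29 lay apart from the other 7 mice by Dixon's criterion at 95%. Its Cdkn1a level at 30 months was 375 CPM (next highest 259 CPM). Its Cdkn1b level at 30 months was 195 CPM (next 144 CPM), and the within-mouse log2 change of Cdkn1b was 0.39 (next 0.074). Its Cdkn2a level at 24 months was 0.0709 CPM, from 2 reads, and the next lowest was 0.197 CPM. Of 21 groups examined, 4 were apart, and chance gives about 1 in 20, or 1.05 of them if the groups were separate. They are not, because the Cdkn1a and Cdkn1b levels and the Cdkn1b change share the 30-month library of mouse 29. The Cdkn1a level only just passed the criterion. The criterion sets the gap to the nearest value against the range, so 2 extreme values on the same side can hide each other. Cdkn2a at 30 months was not flagged, with 1.57 CPM in mouse 50, 1.15 CPM in mouse 21 and 0.514 CPM in mouse 64, the next highest.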

How the results depend on the processing

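The direction of Cdkn2a, Cdkn2b, Cdkn2c and Cdkn2d held under every alternative run, and no Cdkn gene passed an adjusted p of 0.05 in any (DESeq2 gave none for Cdkn2a). The log2 fold changes of the CIP/KIP genes were near 0 and turned sign. Without the replicate block they were 0.020 for Cdkn1a and 0.0012 for Cdkn1c, with 3 genes past an adjusted p of 0.05 and 1708 higher at an unadjusted p under 0.05. Cdkn1c was 0.0085 with DESeq2 size factors and 0.0084 in the DESeq2 Wald test, which called 240 genes. Without mice 21 and 50 the fitted (and within-mouse) changes were 0.061 (0.062) for Cdkn1a, 0.014 (0.015) for Cdkn1b and 0.040 (0.040) for Cdkn1c, the within-mouse changes of Cdkn2b and Cdkn2d were -0.30 (exact permutation p = 0.0938) and 0.12 (exact permutation p = 0.156), and 1 gene passed an adjusted p of 0.05. In CPM with no length correction, Cdkn1c ranked 4 and Cdkn2c 3 at 30 months. The causes were not tested. A pseudocount of 1 lowered the within-mouse change of Cdkn2a from 0.79 to 0.30.

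With each mouse left out in turn, log2 fold changes ran from -0.11 to 0.025 for Cdkn1a, -0.071 to 0.0094 for Cdkn1b, -0.047 to 0.061 for Cdkn1c, 0.82 to 1.25 for Cdkn2a, -0.36 to -0.25 for Cdkn2b, -0.20 to -0.065 for Cdkn2c and 0.15 to 0.22 for Cdkn2d. Within-mouse changes ran from -0.12 to 0.026 for Cdkn1a, -0.075 to 0.0067 for Cdkn1b, -0.051 to 0.050 for Cdkn1c, -0.20 to -0.068 for Cdkn2c and 0.14 to 0.22 for Cdkn2d. Genes higher at an unadjusted p under 0.05 ran from 764 to 1927 (highest without mouse 43) and genes lower from 998 (without mouse 21) to 1845. Cdkn2a, with 2 to 50 reads per library, is the member whose values depth limits.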
